A study of Mus musculus with 12 samples.

Results

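Fatty acid oxidation and acyl-CoA metabolism are described here by 44 genes of mouse islets, chosen by symbol for what their products do. No array value entered that rule, but earlier results of these data were known when the list was made. A probe was named for 43 of them through its RefSeq accession, and no probe was named for Fabp5. Where a gene has more than 1 probe, the brightest one over all arrays stands for it, so that 43 of 17305 named genes are the members described below. Of these 43 probes, 40 were well above background on all 12 arrays. The exceptions were Acot5 on 11 arrays, Acox2 on 9 and Fabp1 on 2.

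The 4 genotypes had 3 arrays each, hybridised with RNA from pancreatic islets of mice on a mixed C57BL/6 x Sv129 background fed chow. WT mice carry both genes. PPARγ2KO mice lack the PPARγ2 isoform, ob/ob mice lack leptin, and POKO mice lack both. Both losses are germline and whole-body, so that islets of ob/ob and POKO mice come from animals without leptin in any tissue, and the islets of PPARγ2KO and POKO mice from animals without PPARγ2 in any tissue. The labels give an age of 4 weeks, whereas the study's text gives 5 weeks and female mice. By its methods each array holds a pool of 3 to 4 mice, from islets that were picked by hand after collagenase digestion and kept in culture overnight, so that the spread between arrays is a spread between pools.

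Long-chain fatty acids are first joined to coenzyme A by acyl-CoA synthetases. CPT1 on the outer mitochondrial membrane then moves the acyl group to carnitine, the carrier SLC25A20 brings acylcarnitine across the inner membrane in exchange for carnitine, and CPT2 returns the acyl group to coenzyme A in the matrix. The spiral of beta-oxidation shortens the chain by dehydrogenation, hydration, a further dehydrogenation and thiolysis, and the electron transfer flavoprotein passes its electrons to the respiratory chain. Peroxisomes shorten very long and branched chains, thioesterases split acyl-CoA back to the free acid, and binding proteins carry fatty acids through the cytosol. Many of these genes are known targets of the PPAR family of nuclear receptors, which bind as heterodimers with RXR to a direct repeat with 1 base between its repeated motifs. In beta cells fatty acid oxidation is known to be restrained when glucose is high, through malonyl-CoA, which inhibits CPT1.

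The median processed signal of an array, before normalization, was 20.9 to 27.0 in WT, 23.0 to 30.4 in PPARγ2KO, 30.7 to 40.6 in ob/ob and 31.6 to 33.6 in POKO. The arrays of one replicate number share a slide, and with 3 arrays a genotype the precision is limited by their number. The probe for Pparg, which reads total Pparg, lay between 8.85 and 8.98 log2 units in WT and between 6.60 and 7.44 in PPARγ2KO. It lay between 8.54 and 9.77 in ob/ob and between 6.41 and 7.14 in POKO, so that the genotypes with and without PPARγ2 did not overlap. The probe for Lep was well above background on 2 of 12 arrays. Of the islet cell markers, 7 of 8 beta and all 4 alpha genes with a probe were well above background on every array. The beta genes summed to between 633670 and 873668 in WT and 881247 and 941647 in ob/ob, which do not overlap, and to between 745683 and 847297 in PPARγ2KO and 812189 and 841526 in POKO. These sums are almost all Ins1 and Ins2, and the single genes differed in sign between ob/ob and WT. Nkx6-1 was higher by 1.09 (adjusted p = 0.0397), and none of the other 7 passed, with Ins1 at 0.93, Pdx1 at 0.14, Slc2a2 at -0.60 and Mafa at -1.13. The alpha genes summed to between 170594 and 208656 in WT and 215719 and 229843 in ob/ob, again without overlap, and to between 196997 and 206800 in POKO. All 7 acinar genes were well above background on every array. The list of B and T lymphocyte genes summed to between 476 and 501 in WT, 341 and 3951 in PPARγ2KO, where the high value is replicate 2 and the other arrays lay at 341 and 689, 3490 and 4486 in ob/ob, and 2130 and 4934 in POKO, and 7 of its 9 genes were higher in ob/ob than in WT at the limit used below. The 5 duct genes were well above background on all arrays, and their differences between ob/ob and WT ran both ways. Krt19 at -1.57, Cftr at -1.33 and Sox9 at -0.73 passed the test, and Krt7 at 0.54 and Spp1 at 0.72 did not. None of the 6 adipocyte genes was well above background on all arrays, with sums of 29.2 to 130. The part of these cells in the results was not tested, and in whole islets fewer cells of a type and less RNA per cell cannot be told apart.

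1 array stood apart for the members, and for beta cell genes with them. WT replicate 1 held the lowest of the 12 values for 14 of 43 members, 32.6%, against 13.6% of all genes, and the median over the members of its deviation from each gene's mean was -0.14 log2 units. On the other arrays that median lay between -0.04 and 0.09. The same array was the lowest of the 12 for 4 of the 8 beta genes, Ins1, G6pc2, Slc30a8 and Nkx6-1. The members that passed the test against WT are also given without it. PPARγ2KO replicate 2 stood apart for the lymphocyte genes, at the level of ob/ob. Without it 5 members passed in ob/ob vs. WT, 11.6% against 13.8% of all genes, 4 of them among the 7 that pass with it, and Cpt2, Hadh and Scp2 lay at an adjusted p of 0.0519 to 0.058. Within ob/ob, replicate 1 stood apart for fibroblast and stellate genes, with Col1a1 at 12.59 against 9.98 and 9.73. The sum of that list ran from 4429 to 21169 in ob/ob and from 6653 to 10111 in WT. Without ob/ob replicate 1, 11 members passed in ob/ob vs. WT, 25.6% against 16.9% of all genes. The part of these cells was not tested. The POKO arrays were the most alike. The median SD over members was 0.0983 in POKO, against 0.208 in WT, 0.235 in PPARγ2KO and 0.197 in ob/ob, and over all genes the order was the same for POKO, with 0.135 against 0.227 to 0.239.

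Promoters are shown for Slc25a20, the one member that passed the test in ob/ob vs. WT in every setting tried, and Fabp1, the one member whose promoter held the repeat that PPAR and RXR are known to bind. No array result rests on Fabp1, which was well above background on 2 arrays. The RefSeq promoters of build GRCm38.p6, from 250 bases before to 50 after each start, cover 38 of the 44 genes. They were searched on both strands for 2 copies of the motif AGGNCA in one orientation with 1 base between them. The repeat was found for 1 of 38 genes, 2.63%, against 0.451% of 27025 genes in all. At least 1 copy of the motif was found for 76.3% of the members and 60.5% of all genes. No copy of the repeat was found in the promoters of the 7 members that passed the test in ob/ob vs. WT, which says only that these letters are not in this window. The promoter of Slc25a20 lies on the plus strand at chr9:108661886-108662185, with its single copy of that motif in capitals. The promoter of Fabp1 lies on the plus strand at chr6:71199629-71199928, with the repeat in capitals. It reads on the opposite strand, and its first base lies at -67 from the start.
Slc25a20: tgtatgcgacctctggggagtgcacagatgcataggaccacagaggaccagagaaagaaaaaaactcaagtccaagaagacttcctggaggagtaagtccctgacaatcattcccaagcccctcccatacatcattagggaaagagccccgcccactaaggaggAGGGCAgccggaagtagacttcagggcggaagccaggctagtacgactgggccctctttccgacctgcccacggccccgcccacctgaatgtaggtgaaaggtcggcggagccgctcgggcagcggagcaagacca
Fabp1: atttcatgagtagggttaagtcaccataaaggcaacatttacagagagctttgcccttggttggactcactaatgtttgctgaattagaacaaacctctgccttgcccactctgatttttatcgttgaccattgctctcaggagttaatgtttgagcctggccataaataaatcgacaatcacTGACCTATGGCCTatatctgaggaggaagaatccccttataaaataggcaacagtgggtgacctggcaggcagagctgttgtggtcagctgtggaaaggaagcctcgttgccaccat

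ob/ob vs. WT compares islets that lack leptin with lean ones where PPARγ2 is intact. In this comparison 5 members were higher in ob/ob and 2 were lower. The carnitine-acylcarnitine carrier Slc25a20, Cpt2, the mitochondrial dehydrogenase Hadh, the peroxisomal thiolase and sterol carrier Scp2 and the fatty acid binding protein Fabp3 rose by 0.52 to 1.36 log2 units. The short-chain dehydrogenase Acads fell by 0.79 and the thioesterase Acot5 by 1.81. The members did not lean one way: 20 of 43 members were higher in ob/ob, and the median difference was -0.03 log2 units, against -0.06 over all named genes. A member passed the test at a Benjamini-Hochberg adjusted p of at most 0.05 over all 41174 probes in limma, and the 7 of 43 members are 16.3%, where 13.6% of all named genes passed. By direction, 6.48% of all genes were higher and 7.13% lower.

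The count of 7 rested on single arrays, also of genotypes that are not compared, but not for Slc25a20, as the plot of the fits with each array left out shows. Without WT replicate 1 the count was 1, and it was also 1 without WT replicate 2, without ob/ob replicate 2 or 3, and without any one of the 3 POKO arrays. It was 5 without any one of the PPARγ2KO arrays, 11 without ob/ob replicate 1 and 13 without WT replicate 3. The share of all genes that passed moved in the same fits between 0.393% and 25%. Slc25a20 passed in all 12 of them, with a difference of 0.94 to 1.12 log2 units, and came nearest to the limit without WT replicate 2, at an adjusted p of 0.0488. Without WT replicate 1 the other 6 kept their direction, with Cpt2 at 0.41, Hadh at 0.64, Scp2 at 0.39, Fabp3 at 1.22, Acads at -0.79 and Acot5 at -1.44, and their adjusted p lay between 0.104 and 0.14. Leaving out a PPARγ2KO or POKO array did not change the differences between ob/ob and WT, but it changed the spread that the genotypes share. The median SD over members was 0.0983 in POKO, against 0.208 in WT and 0.197 in ob/ob. The part of this small spread in the count was not tested. With only the groups compared, 1 member passed, Slc25a20, which is 2.33% against 1.67% of all genes.

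**Figure D1:**
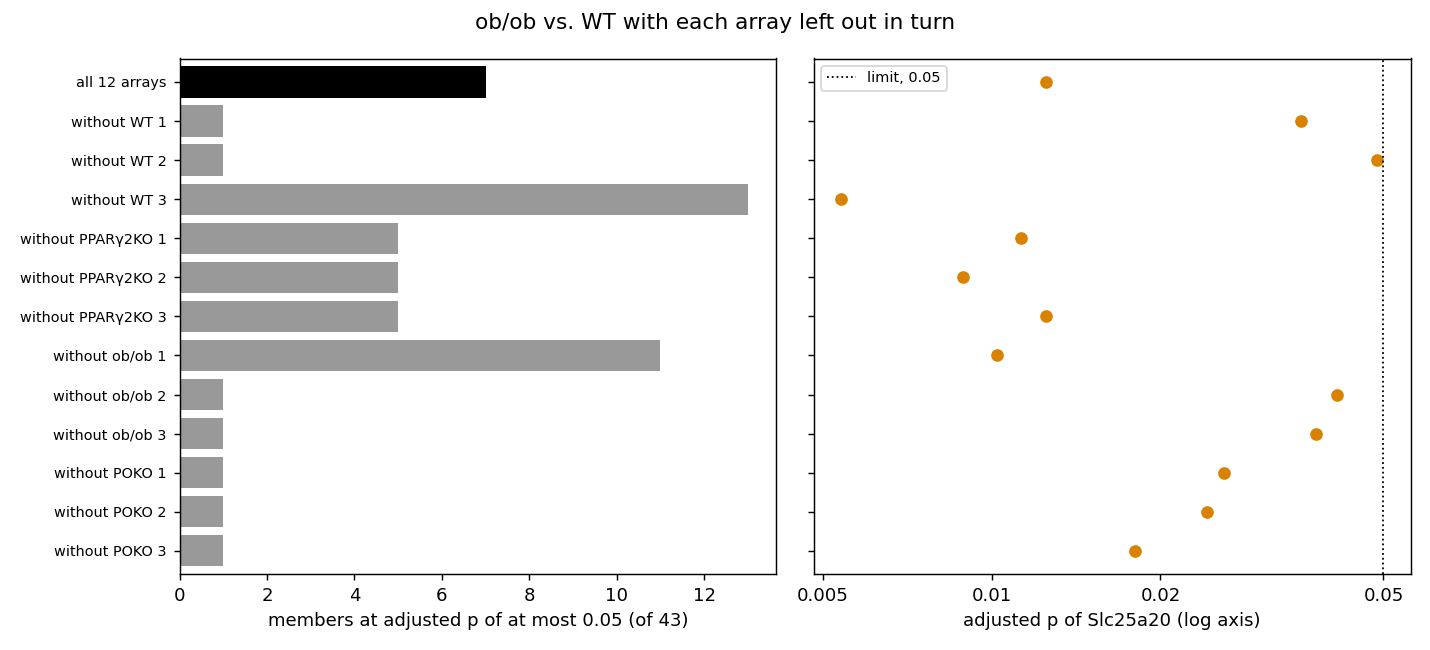
Fits of ob/ob vs. WT with all 12 arrays (first row) and with each array left out. The left panel plots the number of the 43 members at an adjusted p of at most 0.05, which runs from 1 to 13, and the right panel the adjusted p of Slc25a20 on a log axis, which stays below the dotted limit of 0.05.

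The carnitine shuttle brings long-chain fatty acids into the mitochondrion. Of its 7 genes 4 had differences above 0, and 2 passed the test as higher in ob/ob, where 6.48% of all named genes did. Slc25a20 read 7.76, 7.91 and 8.13 log2 units on the WT arrays and 8.88, 9.00 and 8.99 on the ob/ob arrays. The groups did not overlap, and the 3 differences within a slide were 1.12, 1.09 and 0.86. The fitted difference was 1.02 ± 0.13 log2 units (SE from the fit of all 12 arrays, n = 3 arrays per group). This is a 2.03-fold higher signal with an adjusted p of 0.0125 in limma. Cpt2 read 11.32, 11.55 and 11.77 in WT and 11.91, 12.27 and 12.03 in ob/ob, again without overlap, with a difference of 0.52 ± 0.14 and an adjusted p of 0.0435. It missed the limit in 11 of 22 alternatives. The isoforms of CPT1, the step that malonyl-CoA inhibits, did not pass the test. Cpt1a, the liver isoform, was 0.28 higher (adjusted p = 0.244), with 9.64, 10.15 and 10.17 in WT and 10.12, 10.25 and 10.42 in ob/ob. Cpt1c, the brain isoform, was 0.47 higher (adjusted p = 0.307), but WT itself ran from 5.88 to 6.94 and enclosed the ob/ob values of 6.54, 6.72 and 6.90. Cpt1b, the muscle isoform, was 0.31 lower on its brighter probe and 0.41 higher on the other, which was well above background on 5 arrays. Crat and Crot, the carnitine acyltransferases for short and medium chains, differed by -0.20 and -0.09.

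The plot of the members past the limit shows Slc25a20 beside the others. In Slc25a20, Cpt2 and Scp2 every ob/ob array lies above all arrays of the other genotypes, whereas in Hadh and Fabp3 a PPARγ2KO array reaches into the ob/ob range.

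**Figure D2:**
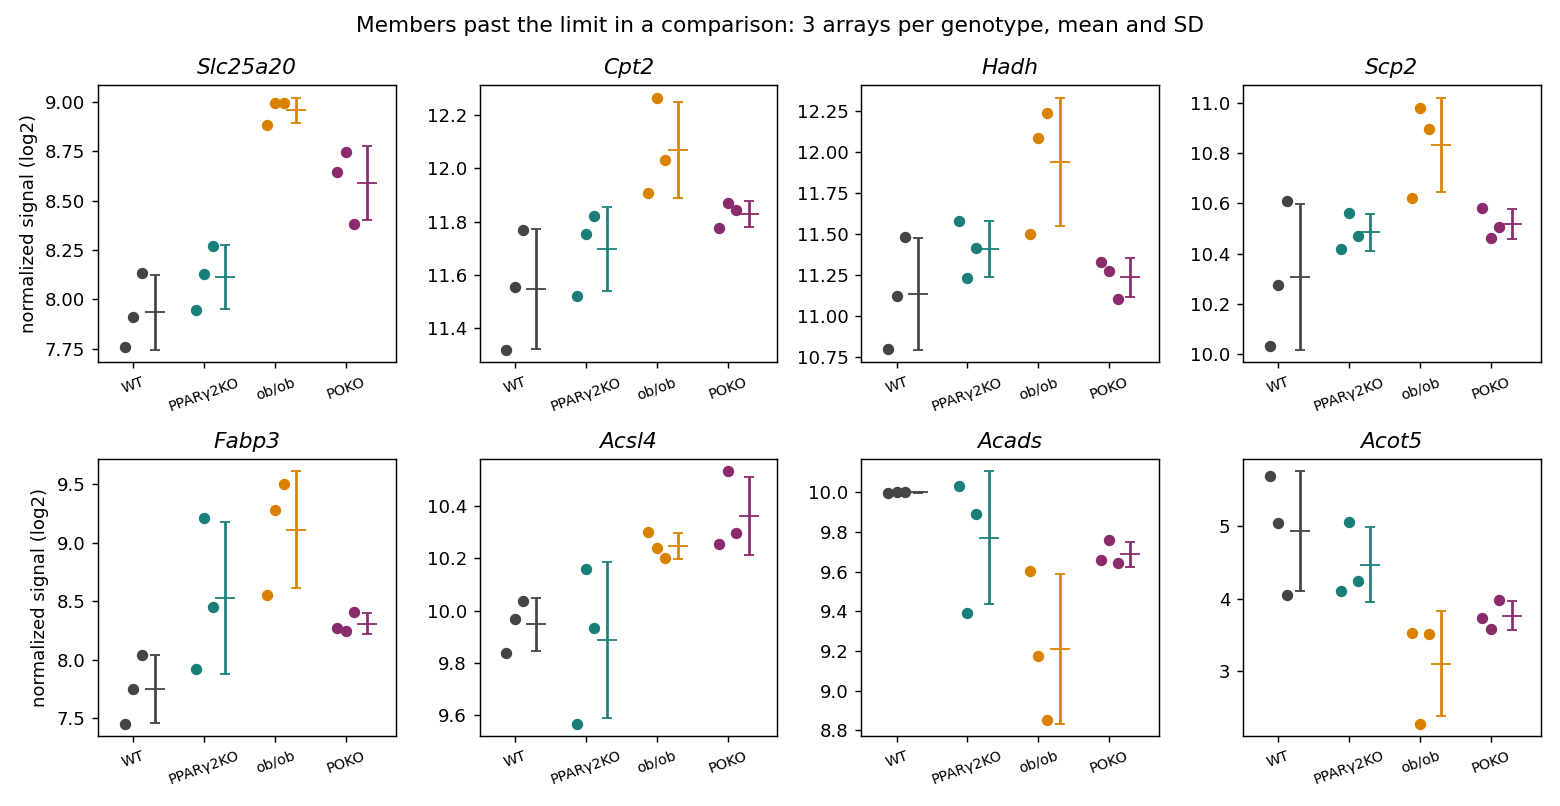
Normalized log2 signal on the 3 arrays of each genotype (points in replicate order, with mean and SD beside them) for the 8 members at an adjusted p of at most 0.05 in ob/ob vs. WT or over both PPARγ2 states. The axes differ between panels; in Slc25a20 the ob/ob arrays lie at 8.88 to 9.00 and the WT arrays at 7.76 to 8.13.

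Within the spiral of beta-oxidation 2 of 9 genes passed the test, 1 higher and 1 lower, where 13.6% of all named genes passed. Hadh, which oxidises short- and medium-chain hydroxyacyl-CoA and is known in beta cells for holding back insulin secretion, read 10.80, 11.12 and 11.49 in WT and 11.50, 12.09 and 12.24 in ob/ob. The highest WT array all but touched the lowest ob/ob array, and the fitted difference was 0.81 ± 0.22 (adjusted p = 0.0469). With the slide as a block it missed the limit (adjusted p = 0.0564). Acads, the short-chain acyl-CoA dehydrogenase, stood at 10.00 on all 3 WT arrays and at 9.61, 9.17 and 8.85 in ob/ob, a difference of -0.79 ± 0.20 (adjusted p = 0.0394). The ob/ob arrays were below every WT array on each slide, by 0.39, 0.83 and 1.15. The very long-chain dehydrogenase Acadvl was 0.36 higher (adjusted p = 0.126) and Hadhb, a subunit of the trifunctional protein, 0.53 higher (adjusted p = 0.0645). Its partner subunit Hadha was 0.16 lower. The medium- and long-chain dehydrogenases Acadm and Acadl were 0.24 and 0.10 lower, the hydratase Echs1 0.13 lower, and the thiolase Acaa2 0.33 higher, none past the limit.

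The auxiliary enzymes that unsaturated chains need did not pass the test. Eci2, an enoyl-CoA isomerase, came near with 11.70, 11.99 and 12.40 in WT and 12.42, 12.94 and 12.92 in ob/ob, a difference of 0.73 ± 0.23 (adjusted p = 0.0648), and it passed in 6 of 22 alternatives, among them the slide as a block (adjusted p = 0.0367) and normexp background correction (adjusted p = 0.0454). Decr1, a dienoyl-CoA reductase, was dim and read 4.28, 4.37 and 4.43 in WT and 3.89, 4.11 and 4.09 in ob/ob, a difference of -0.33 (adjusted p = 0.236). Eci1 differed by 0.18. Of the genes that pass electrons to the respiratory chain, Etfb was 0.37 higher (adjusted p = 0.0948), while Etfa and Etfdh differed by 0.09 and -0.03.

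Among 7 peroxisomal genes Scp2 alone passed. It read 10.03, 10.28 and 10.61 in WT and 10.62, 10.98 and 10.90 in ob/ob, again without overlap but nearly touching, with a difference of 0.53 ± 0.15 (adjusted p = 0.0498). Acox2, the oxidase of branched chains and bile acid intermediates, was spread widely and was well above background on 2 of 3 WT arrays and 1 of 3 ob/ob arrays. Its values were 6.82, 4.60 and 3.60 in WT and 4.16, 2.04 and 1.76 in ob/ob, which overlap. The difference of -2.36 ± 0.90 did not pass (adjusted p = 0.111), rests on near-background values, and was -0.26 with normexp background correction. Hsd17b4, the bifunctional enzyme of the branched-chain branch, was 0.53 lower (adjusted p = 0.0931), and Acox3 was 0.25 lower (adjusted p = 0.09). The bifunctional enzyme Ehhadh of the straight-chain branch read 7.32, 7.56 and 7.14 in WT and 7.10, 7.34 and 7.55 in ob/ob, a difference of -0.01. The thiolases Acaa1a and Acaa1b, near copies of each other whose probes may share signal, differed by 0.00 and 0.19.

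The genes that activate, import and release acyl-CoA follow. None of the 4 acyl-CoA synthetases passed, with differences of -0.30 (Acsl3) to 0.30 (Acsl4). The transport protein Slc27a4 was 0.47 lower on its brighter probe (adjusted p = 0.0837) and 0.76 lower on the other, which passed the test (adjusted p = 0.0402). Slc27a1 was 0.26 lower. Of the 4 thioesterases Acot5 passed the test. Acot5, a peroxisomal thioesterase, read 5.68, 5.04 and 4.05 in WT and 3.53, 2.28 and 3.51 in ob/ob. The groups did not overlap and the difference was -1.81 ± 0.47 (adjusted p = 0.0405), but the probe is dim, and with normexp background correction the difference shrank to -0.16 and did not pass. It also missed the limit with the slide as a block (adjusted p = 0.0596). Acot7, which is bright and acts in the cytosol, read 11.11, 11.77 and 11.85 in WT and 11.35, 10.42 and 10.48 in ob/ob, a difference of -0.82 (adjusted p = 0.0753) that was positive on slide 1, at 0.24, and -1.35 and -1.37 on the others. Acot1 and Acot2, neighbours of Acot5 in one gene family with closely related sequences, differed by -0.13 and -0.25 (adjusted p = 0.853 and 0.411). Acot1 was higher in ob/ob on 2 of 3 slides, and ran from 9.01 to 9.96 in WT and from 8.60 to 10.13 in ob/ob.

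Of the binding proteins, Fabp3, the heart type, had the largest rise of any member. It read 7.45, 7.75 and 8.04 in WT and 8.55, 9.28 and 9.51 in ob/ob, with no overlap and within-slide differences of 1.1, 1.53 and 1.46. The fitted difference was 1.36 ± 0.34 log2 units, 2.57-fold, with an adjusted p of 0.0375. Fabp2, the intestinal type, was dim, with 5.39, 5.26 and 5.11 in WT and 4.45, 4.46 and 4.93 in ob/ob (adjusted p = 0.282). Fabp1, the liver type, did not rise well above background in WT or ob/ob, so no fold is given. Pdk4, the kinase that shuts pyruvate dehydrogenase when fatty acids are burned, read 8.59, 9.07 and 9.46 in WT and 9.29, 10.18 and 10.18 in ob/ob. It was higher on each slide, by 0.70, 1.11 and 0.72, yet the groups overlapped and the difference of 0.84 ± 0.30 did not pass (adjusted p = 0.0958). With the slide as a block it did (adjusted p = 0.0364).

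POKO vs. PPARγ2KO asks the same of leptin deficiency where PPARγ2 is absent, on 6 other arrays. None of the 43 members passed the test, nor did any named gene (0% of 17305). At an unadjusted p under 0.05 there were 4 members, 9.3%, against 12.9% of all genes: Slc25a20 and Acsl4 were higher in POKO and Eci1 and Decr1 lower. Slc25a20 read 7.94, 8.13 and 8.27 in PPARγ2KO and 8.65, 8.75 and 8.38 in POKO. The groups did not overlap, and the difference of 0.48 ± 0.13 (adjusted p = 0.283) was 0.70, 0.62 and 0.11 within the slides. The other members that had risen in ob/ob lay close to 0 here: Cpt2 at 0.13, Scp2 at 0.03, Hadh at -0.17 and Fabp3 at -0.22. Fabp3 read 7.92, 9.21 and 8.45 in PPARγ2KO, so that 2 of the 3 lean arrays lay above all 3 POKO arrays, at 8.27, 8.25 and 8.41. Its highest value is on replicate 2, the array with the high lymphocyte sum, and without that array the difference was 0.12 (adjusted p = 0.958). Of the 2 that had fallen, Acads differed by -0.08 and Acot5 by -0.70 (adjusted p = 0.605). Without PPARγ2KO replicate 2 these differences were -0.27 and -0.41. Acot5 read 4.10, 5.05 and 4.24 in PPARγ2KO and 3.73, 3.58 and 3.97 in POKO.

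**Figure D3:**
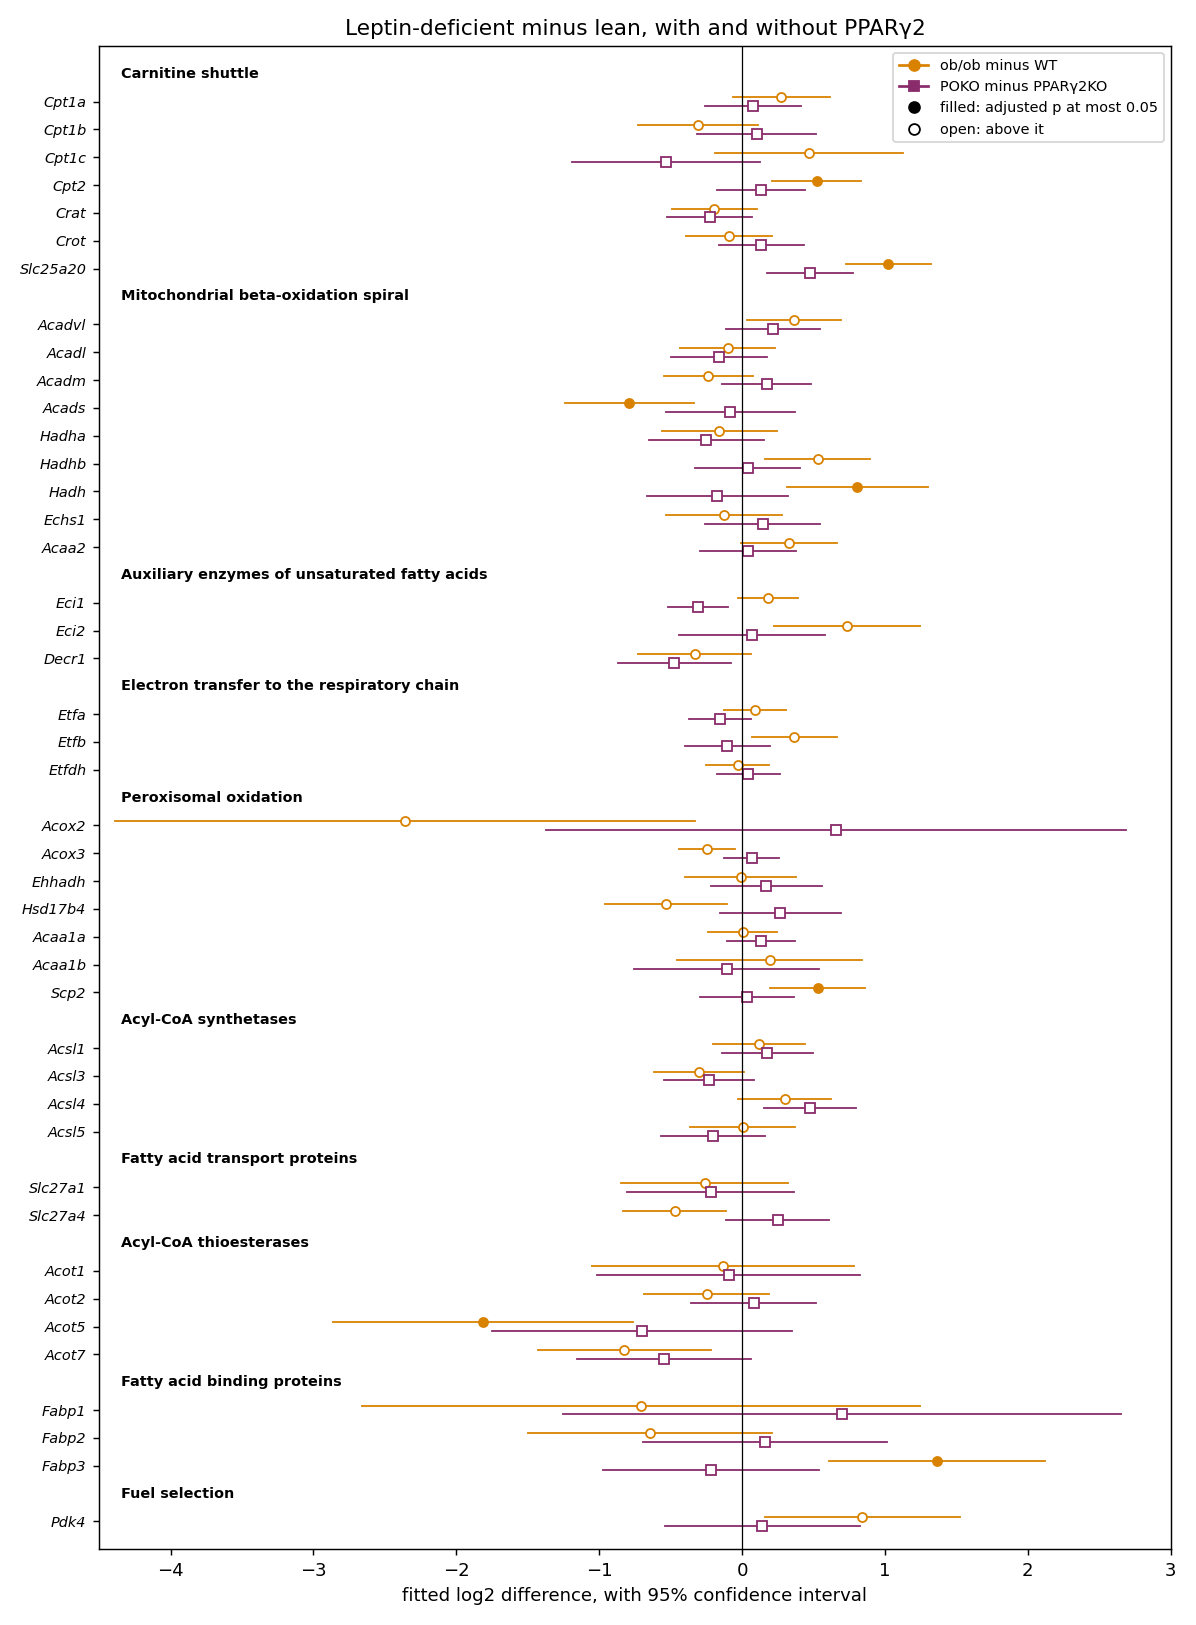
Fitted log2 differences with 95% confidence intervals for the 43 members, ordered by role, for ob/ob minus WT (circles) and POKO minus PPARγ2KO (squares). Filled symbols have an adjusted p of at most 0.05; all 7 belong to ob/ob minus WT.

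The 2 comparisons use no array in common, so their values can be set against each other. Over the 43 members the 2 differences had r = -0.02, and 22 had the same sign (51.2%). Over all 17305 named genes r was 0.51 and the signs matched for 63.3%. These are descriptions across genes, which are not independent replicates, and both comparisons share slides. With each array left out, or under another processing, r over the members stayed between -0.23 and 0.22, the upper end being the value without Acox2.

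**Figure D4:**
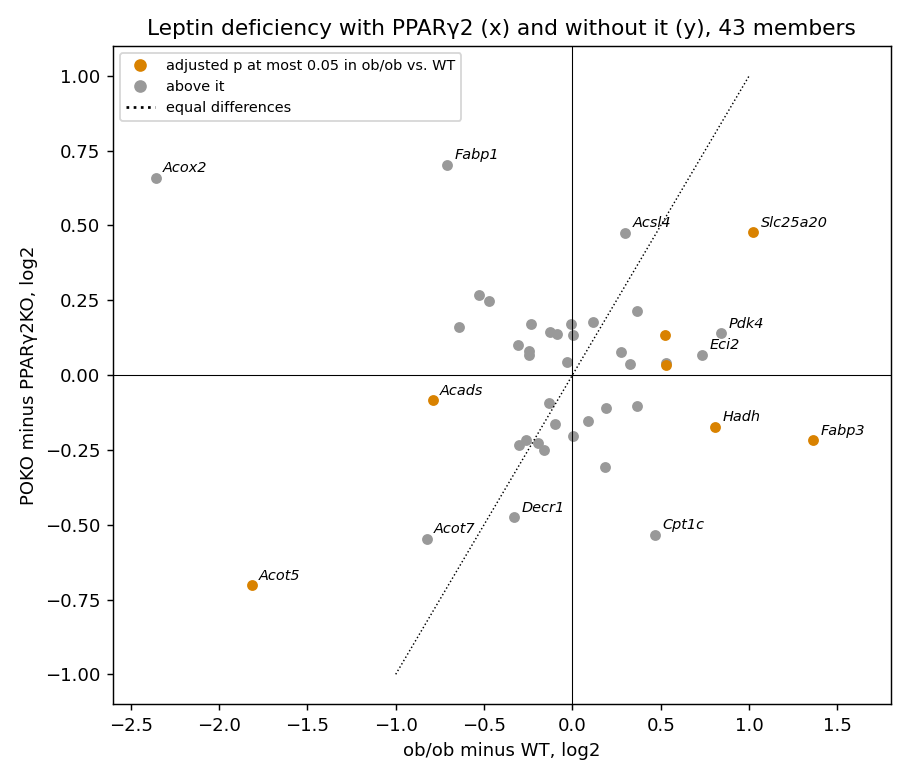
The difference ob/ob minus WT (x axis, log2) against POKO minus PPARγ2KO (y axis, log2), 1 point per member. Orange points passed the test on the x axis; Slc25a20 lies at 1.02 and 0.48, while Fabp3 lies at 1.36 and -0.22, and the dotted line marks equal differences.

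Over both PPARγ2 states, leptin deficiency sets 6 arrays against 6. Here 3 of 43 members passed, 6.98%, where 11% of all named genes did, 5.64% higher and 5.37% lower. Slc25a20 was higher by 0.75 ± 0.09 (adjusted p = 0.0106) and passed with each array left out in turn. The synthetase Acsl4, known for its preference for arachidonate, was higher by 0.39 ± 0.10 (adjusted p = 0.0472). It read 9.84, 9.97 and 10.04 in WT and 9.57, 10.16 and 9.93 in PPARγ2KO, and 10.30, 10.24 and 10.20 in ob/ob and 10.26, 10.53 and 10.30 in POKO, so that all 6 leptin-deficient arrays lay above all 6 lean ones. Its other probe, almost as bright, differed by -0.04 and did not pass. Acsl4 missed the limit in 12 of 21 alternatives, among them the 75th percentile (adjusted p = 0.111) and the mean of all its probes (adjusted p = 0.334). Acot5 was lower by 1.26 ± 0.33 (adjusted p = 0.0465), with no overlap between lean and leptin-deficient arrays, but with normexp background correction the difference was -0.11 (adjusted p = 0.0712). It missed the limit in 13 of 21 alternatives, among them the 75th percentile and the slide as a block (adjusted p = 0.0687). Acot7 was next at -0.69 (adjusted p = 0.0543), followed by Cpt2 at 0.33 (adjusted p = 0.0651), which passed with the slide as a block. Fabp3 was 0.57 higher (adjusted p = 0.151) and Acads 0.44 lower (adjusted p = 0.0818). Without PPARγ2KO replicate 2, Acads passed (adjusted p = 0.0455) and Acot5 did not (adjusted p = 0.0828), and Fabp3 was 0.74 higher (adjusted p = 0.0619). Without WT replicate 1 or 2, PPARγ2KO replicate 1, ob/ob replicate 2 or 3, or any one POKO array, 1 member passed, Slc25a20, and without WT replicate 3 there were 7, 16.3% against 20.2% of all genes. Over these fits the share of all genes moved between 1.02% and 20.2%.

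POKO vs. ob/ob compares leptin-deficient islets without and with PPARγ2, the comparison that the study uses to look for genes dependent on PPARγ2. No member passed, nor did any named gene (0%), and at an unadjusted p under 0.05 there were 8 members, 18.6%, against 11.8% of all genes. The median over the members was 0.01 log2 units and 23 of 43 were higher in POKO. The 5 members that had risen in ob/ob all had differences below 0. Fabp3 lay at 8.27, 8.25 and 8.41 against 8.55, 9.28 and 9.51, a difference of -0.80 ± 0.34 (adjusted p = 0.532). Hadh lay at 11.33, 11.27 and 11.10 against 11.50, 12.09 and 12.24, a difference of -0.71 ± 0.22 (adjusted p = 0.531), and none of the POKO arrays reached the ob/ob arrays. Slc25a20 differed by -0.37 ± 0.13 (adjusted p = 0.531), also without overlap. In the other direction Acads was 0.48 higher, at 9.66, 9.76 and 9.64 (adjusted p = 0.532). These members were described above with the same ob/ob arrays, so an ob/ob array that is high counts in both comparisons. The beta genes were lower in POKO as well, from -0.02 (Ins2) to -0.96 (Slc2a2), with a median of -0.77 and none past the limit. The beta and alpha sums of POKO and ob/ob given above do not overlap either. The part of these cells in the differences of the members was not tested.

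Other members with large differences between POKO and ob/ob were dim or scattered. Acox2 read 5.69, 3.67 and 5.43 in POKO, with groups that overlapped. The difference from ob/ob, where 1 of 3 arrays was well above background, was 2.28 (adjusted p = 0.531) and 0.20 with normexp background correction. Fabp1 read 3.83, 2.05 and 5.55 in POKO and was well above background on 2 of those 3 arrays and on none of the other 9. The measured means were 3.81 log2 units in POKO and 2.08 in ob/ob (adjusted p = 0.561), and without POKO replicate 3 the difference was 0.86. Fabp2 read 5.04, 4.66 and 6.30, so that 1 POKO array, replicate 3, was high for both Fabp1 and Fabp2. Acot1 lay at 9.77, 10.09 and 9.90 in POKO, within the range of ob/ob. Pdk4, at 9.25, 9.42 and 9.69, differed by -0.43 (adjusted p = 0.679).

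6 of the genes that the study's text names for fatty acid oxidation are members. On their brightest probes all 6 had differences below 0 in POKO vs. ob/ob, none past the limit. The other probe of Cpt1a, well above background on all 12 arrays, differed by 0.09. Cpt1c differed by -0.43 ± 0.29 and read 6.13, 6.66 and 6.10 in POKO. Scp2 differed by -0.32 ± 0.15, at 10.58, 10.46 and 10.51, and Cpt2 by -0.24 ± 0.14, at 11.77, 11.87 and 11.84. For both of these the groups did not overlap. Acaa1b differed by -0.18 ± 0.29, at 10.66, 10.62 and 10.73, which turned to 0.01 without ob/ob replicate 3. The last of them were Cpt1a by -0.14 ± 0.15, at 10.16, 10.21 and 10.00, and Ehhadh by -0.12 ± 0.17, at 7.26, 7.11 and 7.26. Without ob/ob replicate 3 the differences of Cpt1a and Ehhadh were -0.06 and -0.01. With all arrays the adjusted p of the 6 genes in limma lay between 0.54 and 0.946. These genes were chosen by the study from these very arrays, so that their shared direction is no independent evidence.

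PPARγ2KO vs. WT asks what loss of PPARγ2 does in lean islets. No member passed (0% of all genes), and 4 members had an unadjusted p under 0.05, 9.3%, against 8.83% of all genes. The transport protein Slc27a4 was 0.56 lower, and Etfa, Eci1 and Fabp3 were 0.30, 0.25 and 0.78 higher, the last 0.44 without replicate 2. Cpt1c, at 6.90, 6.48 and 7.10 in PPARγ2KO, was 0.57 higher, and Ehhadh, at 7.13, 6.72 and 7.28, was 0.30 lower, neither past an unadjusted 0.05. Other members that turn up in the comparisons above read as follows in this genotype: Cpt2 at 11.52, 11.75 and 11.82, Hadh at 11.58, 11.23 and 11.41, Scp2 at 10.42, 10.56 and 10.47, Pdk4 at 9.01, 9.69 and 9.24, and Cpt1a at 10.06, 10.13 and 9.94.

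In lean and in leptin-deficient islets the loss of PPARγ2 went in opposite directions for many members, a pattern that rested on 1 array. The 2 differences, which share no array, had the same sign for 10 of the 43 members, 23.3%, against 35.7% of all named genes. They had r = -0.52 over the 43 members and r = -0.20 over all named genes. Without WT replicate 1 the value over the members was 0.10, and without any other single array it lay between -0.73 and -0.45.

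The test of that difference, the interaction of leptin deficiency and PPARγ2 loss, passed for no member and no named gene (0%), with a smallest adjusted p of 0.265 among the members. At an unadjusted p under 0.05 there were 12 members, 27.9%, against 16.1% of all genes. Among them were Fabp3 at -1.58 ± 0.48 (adjusted p = 0.274, and -1.24 without PPARγ2KO replicate 2), Hadh at -0.98 ± 0.31 (adjusted p = 0.275), Slc25a20 at -0.55 ± 0.19 (adjusted p = 0.289) and Acads at 0.71 ± 0.28 (adjusted p = 0.323). An effect of leptin deficiency that differs between the PPARγ2 states is therefore not shown for any of the 7 members.

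POKO vs. WT showed no member past the limit, where 0.214% of all genes passed. At an unadjusted p under 0.05 there were 4 members, 9.3%, against 17.2% of all genes. Slc25a20 had the smallest adjusted p, 0.0841, with a difference of 0.66 ± 0.13 and no overlap. Acot5 was 1.16 lower, Acsl4 0.42 higher and Decr1, at 3.91, 4.07 and 3.87 in POKO, 0.41 lower. Loss of PPARγ2 over both leptin states passed for no member and no named gene (0%), with 1 member at an unadjusted p under 0.05, Etfa at 0.18, which is 2.33% against 4.09% of all genes. The median over the members was 0.01.

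The 23 members not described by array were left out of that description because, among other criteria, their differences were smaller. In ob/ob vs. WT their differences ran from -0.53 (Hsd17b4) to 0.53 (Hadhb), and 9 of 23 were higher. In POKO vs. ob/ob they ran from -0.33 (Hadhb) to 0.43 (Hsd17b4), and in PPARγ2KO vs. WT from -0.56 (Slc27a4) to 0.30 (Etfa). Their interaction ran from -0.49 (Hadhb) to 0.80 (Hsd17b4), with no adjusted p under 0.265. The brighter and dimmer probes of a gene disagreed in sign in ob/ob vs. WT for Cpt1b, Acsl1 and Acsl4, and for Acaa1a, whose 3 probes all lay between -0.11 and 0.00.

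A list of 67 other genes of the pathway, 64 of them with a probe, gave 10 genes past the limit in ob/ob vs. WT, 15.6%, 5 in each direction, where 13.6% of all named genes passed. Higher were the thioesterase Acot11 by 0.89, the peroxisomal hydroxylase Phyh, which starts alpha-oxidation, by 1.21, the peroxisomal CoA diphosphatase Nudt7 by 0.96, Fabp4, the binding protein of adipocytes, macrophages and endothelium, by 1.31, and 1 further peroxisomal gene. The lists of endothelial and macrophage genes summed to 975 to 1866 and 4085 to 4916 in WT, and to 2388 to 3062 and 1690 to 7010 in ob/ob, and their part in the rise of Fabp4 was not tested. Lower were Acacb, the mitochondrial acetyl-CoA carboxylase that makes the malonyl-CoA which inhibits CPT1, by 1.65, the mitochondrial thioesterases Acot9 and Acot10 by 0.95 and 1.02, the acyl-CoA binding protein Dbi by 0.91, and Fabp6, whose probe did not rise well above background anywhere. Acacb read 10.22, 10.05 and 9.12 in WT and 8.40, 8.27 and 7.76 in ob/ob, without overlap (adjusted p = 0.0246). It read 9.36, 8.80 and 8.91 in PPARγ2KO and 9.31, 8.61 and 9.14 in POKO, values that reach into those of WT. The genes of ketone bodies, of other acyl-CoA dehydrogenases, of the remaining pyruvate dehydrogenase kinases and phosphatases, and of PPAR regulators and targets held none past the limit. Over both PPARγ2 states 4 of the 64 genes passed, 6.25% against 11% of all named genes: Acot11 and Phyh higher, by 0.49 and 0.74, and Acot9 and Fabp6 lower.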

How the data were processed

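Islet RNA was hybridised to 12 single-colour Agilent whole mouse genome arrays, 3 per genotype. Per the file headers, Agilent Feature Extraction 10.1.1.1 made the deposited spot files, whose processed signal is an intensity after background subtraction. The deposited value table holds the authors' log2 values of the same arrays and was used as an alternative. Here 919 outlier spots were left out, processed signals were quantile normalized over the 12 arrays and taken to log2, and spots of a probe were averaged, giving 41174 probes. A factor of 4 genotypes was fitted in limma 3.58.1 (R 4.3.3), with 8 contrasts and p-values adjusted by Benjamini-Hochberg over all probes. Sums of marker lists are of normalized signals. Each error of a difference is its SE from the limma fit of all 12 arrays, with a spread shared by the 4 genotypes. Named probes are those whose RefSeq accession matched 1 symbol (25097 probes, 17305 genes).

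The members and lists were chosen with earlier results of these data known. Members are named by array where they passed the test in ob/ob vs. WT or over both PPARγ2 states, where they had the largest differences, or where the study's text names them. Same-numbered arrays share a slide, and 10 of 12 arrays correlated best with one of their own number. Deviations of same-numbered arrays correlated between -0.134 and 0.184. Arrays that differed in both number and genotype had a similar range, -0.185 to 0.161. The study's limma model used the array as its block, which cannot be fitted with 1 sample per array, and whether the slide was meant is not given in the sources used here. The slide as a block was an alternative, given beside each call it changes. Scripts were tested on simulated data, and figures were drawn with matplotlib 3.10.9. No arrays held identical values, and correlations between arrays were 0.959 to 0.989. 1 gene of the pathway is counted and not named here.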

Additional observations from a re-analysis of the deposited data

How the results depend on the processing

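In ob/ob vs. WT the 7 members passed also with quantiles of log2 values, with outlier spots kept and with the deposited value table. The count was 4 after a shift to the 75th percentile, 1 with only the groups compared, 16 with array weights and 3 with an absolute log2 difference of at least 1, and 1 to 13 with arrays left out. The share of all genes was 13% at the 75th percentile, 1.67% with only the groups compared, 34.5% with array weights (members 37.2%) and 0.393% to 25% with arrays left out. For the log2 minimum no share of all genes is given, here or below, so its counts are not read against one. Slc25a20 passed in all 22 alternatives that gave it a value, with an adjusted p of 0.00382 to 0.0488. Cpt2 and Acot5 missed the limit in 11 of 22, Acads and Fabp3 in 8, and Hadh and Scp2 in 13, all without a change of direction. The 75th percentile moved the median of all probes from -0.08 to -0.19 and that of the members to -0.12, where all genes lay at -0.13. With all probes of a gene averaged the members' median was -0.10. Over both PPARγ2 states the count was 13 with array weights, 1 with the log2 minimum, and 1 to 7 with arrays left out, where the share of all genes was 28% with array weights (members 30.2%) and 1.02% to 20.2% with arrays left out. With array weights 1 member, 2.33%, passed in POKO vs. WT and 1 in POKO vs. ob/ob, against 9.89% and 3.92% of all genes, and the median of the interaction was -0.0455. Arrays left out gave 0 to 1 members in POKO vs. WT and in POKO vs. PPARγ2KO, where 1.38% and 1.43% of all genes passed in the fits with 1 member, and medians of -0.0483 to 0.0508 for the interaction. The median of POKO vs. PPARγ2KO was -0.0831 at the 75th percentile. Acaa1b in POKO vs. ob/ob ran from -0.40 to 0.0115, turning sign without ob/ob replicate 3. With the replicate block 7 members passed in ob/ob vs. WT, 16.3% against 14.3% of all genes. Of these 5 were shared, with Hadh and Acot5 replaced by Eci2 and Pdk4. Over both states 3 passed with the block, 6.98% against 11% of all genes, 2 of them shared, with Acot5 replaced by Cpt2. The relations across members and their alternatives were chosen after the data were seen. The causes of these changes were not tested. Dim probes (Acot5, Acox2, Fabp1) limit what can be said of those genes.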
